A study of Danio rerio with 4 samples.

Results

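A group of 10 genes of the Notch pathway was followed across the cell types of the injured adult zebrafish kidney: the ligand genes jag1a, jag1b, jag2b and dll4, the receptor genes notch1a, notch1b, notch2 and notch3, and the hairy-related genes her6 and her9. They are among the 28357 genes listed in any library, and each of the 10 was listed in all 4 libraries. For every gene, the level in unique molecular identifiers (UMIs, 1 per captured transcript) per 1000000 UMIs of the cell type (CPM) and the share of cells with a UMI were taken in each library. Cell types were assigned by marker genes outside this list, and no gene of the Notch pathway was used to cluster the cells.

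In Notch signaling, a ligand of the Jagged or Delta family on 1 cell binds a Notch receptor on its neighbor. The receptor is then cut, and its inner part enters the nucleus and switches on genes of the hairy-related her, hes and hey families. Many of these code for repressors. In the embryonic zebrafish kidney, Notch signaling limits how many tubule cells become multiciliated instead of transporting. In vessels, dll4 and the Notch1 receptors act in sprouting and arterial identity.

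The study used single-cell RNA sequencing of kidneys to look for renal stem cells after injury. All 4 libraries came from kidneys of AB zebrafish taken 4 days after gentamicin, an antibiotic that is toxic to tubules, was injected into the abdominal cavity at 2.7 µg/µl and 20 µl per fish to induce acute kidney injury (AKI). There was no uninjured group, so the values below compare cell types and say nothing of the effect of injury. The sources do not say which fish went into which library, and the p-values therefore measure the spread between libraries, which may be technical.

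The libraries held 5821 to 9831 cells and 59350367 to 87759842 UMIs each, 31008 cells in all. Libraries 1 and 2 had medians of 4643.5 and 4358 UMIs per cell and listed no gene for a mitochondrial protein, whereas libraries 3 and 4 had medians of 9953.5 and 9883 and listed 13. In all, 168 barcodes appeared in more than 1 library, 108 of them in libraries 1 and 2, 46 in libraries 3 and 4 and 1 to 7 in each other pair. The summed counts of a pair were also more alike, with chi-square statistics (per degree of freedom) of 12.6 for libraries 1 and 2 and 6.69 for libraries 3 and 4 but of 439.8 to 454 across pairs. Whether the libraries of a pair share cells or a cell suspension is not stated. If they do, the 4 libraries are fewer than 4 independent samples, and every n, SD and p-value below is to be read with that doubt. Clustering gave 46 clusters. Of these, 12 with 9251 cells stayed unnamed, and the rest were named as 16 cell classes, each called X-like below. Ranks of classes below leave the unnamed cells out. Those cells held 46.4% of all notch1b UMIs, 46.3% of her9, 44.9% of notch1a and 32.7% of notch2 UMIs. For the remaining genes of the group their part lay between 2.86% (dll4) and 20.4% (jag1b). The kidney is also the site of blood formation in zebrafish, and blood and immune cells made up most of the named cells.

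The classes of most interest here were small. Nephron progenitor-like cells numbered 87, with 22, 30, 19 and 16 in libraries 1 to 4, and their 8 markers (such as pax2a, six2a, eya2 and lhx1a) summed to between 2900 and 4137 CPM per library. They were split into a cluster of 53 cells led by cdh11, sostdc1a and aldh1a2 (subpopulation 1-like) and a cluster of 34 cells led by cdh6, pax2a and jag1b (subpopulation 2-like). The clustering resolution was raised until these and the multiciliated-like cells came apart, so the number of groups was set by the procedure. The subpopulation names follow marker genes that the study gave for the same cells. Both clusters were filled unequally: from library 1 to library 4, subpopulation 1 drew 17, 19, 8 and 9 cells and subpopulation 2 drew 5, 11, 11 and 7. Levels of the whole progenitor-like class mix these shares. Multiciliated-like cells numbered 35. Median depths were 10767 UMIs in progenitor-like and 10981 in multiciliated-like cells, against 6274 over all cells. Of the progenitor-like cells, 43.7% were among the 6% of cells with the highest doublet scores, and of the subpopulation 2-like cells 61.8%. Neutrophil markers summed to 174 to 18887 CPM in the subpopulation 1-like cells and germ cell markers to 0 to 1912 CPM in the subpopulation 2-like cells. Leaving out 3 neutrophil marker-rich or 3 germ cell marker-rich cells kept all 21 calls that were rerun. A UMI of mki67, a naming marker of subpopulation 2, was found in 82.4% of its cells and in 20.8% of subpopulation 1-like cells. Multiciliated markers summed to 611 to 3707 CPM in the subpopulation 2-like cells and to 2174 to 3594 CPM in the multiciliated-like cells. Distal tubule markers summed to 1316 to 3783 CPM in the multiciliated-like cells, against 7471 to 13588 CPM in distal tubule-like cells. The part of multiciliated RNA in the values of subpopulation 2, and of distal tubule RNA in those of multiciliated-like cells, was not tested. Vascular endothelium markers summed to 19.1 to 715 CPM in stroma-like cells, and their part in the stroma-like values was not tested either. For doublets, the cells of the highest doublet scores were left out as an alternative, with values given below for whole classes. Levels within the subpopulations are not given without these cells.

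**Figure D1:**
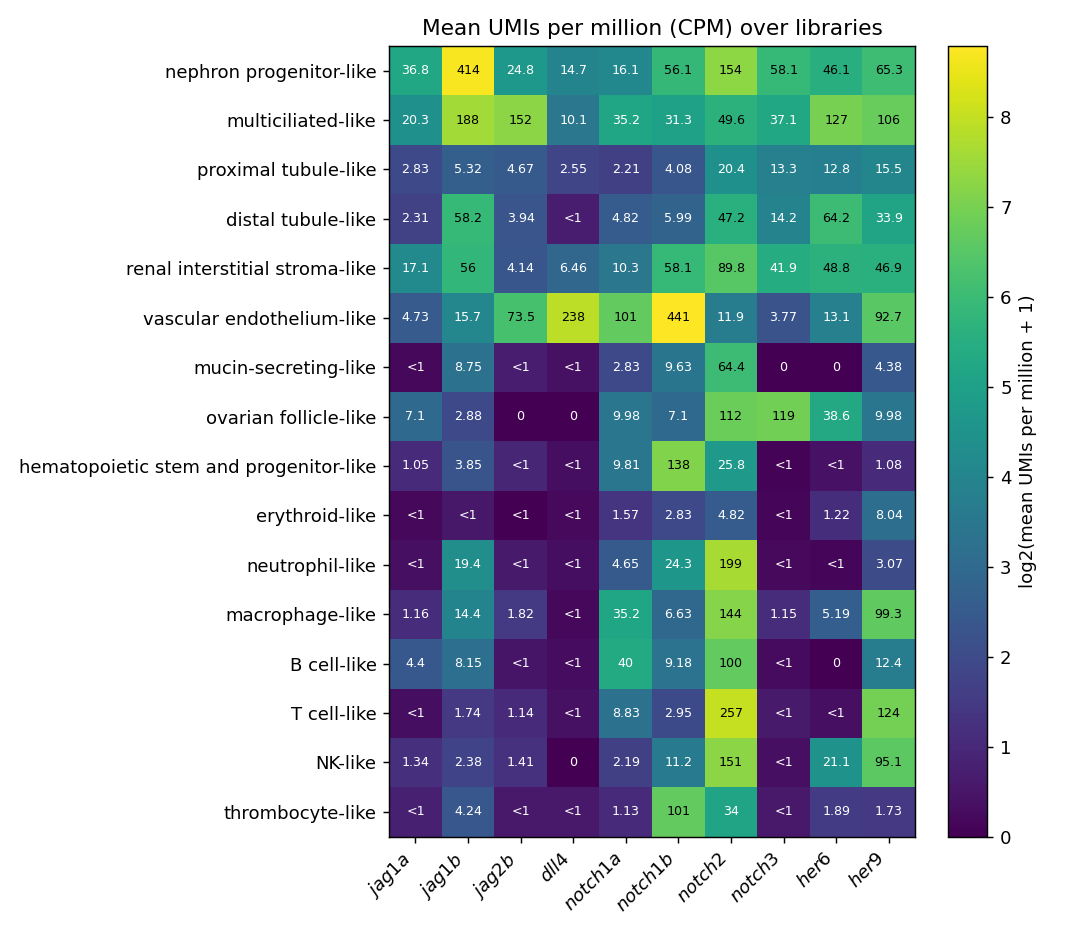
Mean CPM of the 10 genes (columns) in the 16 named cell classes (rows), with the color giving log2(mean CPM + 1) and the printed number the mean over the libraries that hold the class. The highest means of jag1a and jag1b stood in progenitor-like cells, of jag2b and her6 in multiciliated-like cells, of dll4, notch1a and notch1b in endothelium-like cells, of notch2 and her9 in T cell-like cells and of notch3 in the ovarian follicle-like cells of libraries 1 and 2.

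In nephron progenitor-like cells, the ligand genes jag1a, jag1b and jag2b, the receptor gene notch3 and the target gene her6 were higher than in all other cells. These were 5 of the 10 genes, and none of the 10 was lower. Over all 18922 genes tested in the same fit (edgeR's quasi-likelihood test on sums per library, Benjamini-Hochberg adjusted p below 0.05), 10.6% were called higher and 18.8% lower. In multiciliated-like cells the same 5 genes were called higher and notch2 lower, against backgrounds of 10.3% and 18.6%. In vascular endothelium-like cells jag2b, dll4, notch1a, notch1b and her9 were higher and notch2 was lower, against 11.4% and 23.7%. In renal interstitial stroma-like cells 4 genes (jag1a, jag1b, notch3 and her6) were higher and none lower, against 12.4% and 16%.

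**Figure D2:**
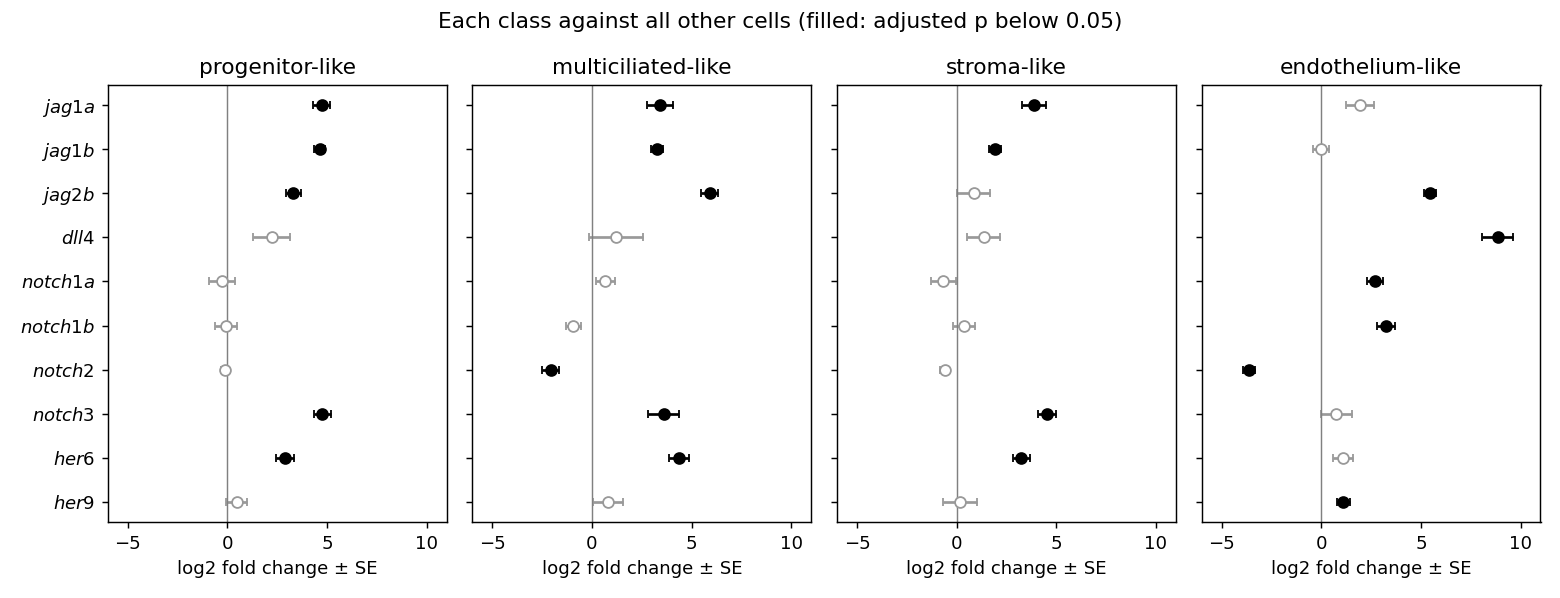
Log2 fold change (x axis) of each gene in 4 classes against all other cells, with bars of 1 SE and filled points where the adjusted p was below 0.05. The jag1b point of progenitor-like cells stands at 4.64 and the dll4 point of endothelium-like cells at 8.85.

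The ligand jag1b, 1 of the 2 zebrafish counterparts of the mammalian JAG1 gene, had the highest level of its 16 class means in nephron progenitor-like cells. Its levels there were 389, 249, 479 and 541 CPM in libraries 1 to 4 (414 ± 127, SD, n = 4). Multiciliated-like cells followed with 164, 282, 224 and 83.6 CPM (188 ± 85). Distal tubule-like cells had 58.2 ± 27.4 CPM and stroma-like cells 56 ± 15 CPM. All libraries of the progenitor-like cells lay above all libraries of the tubule-like and stroma-like cells, taken as whole classes. Only library 2 of the multiciliated-like cells reached their range. A single distal tubule-like cluster, described below, also overlapped that range. Distal tubule-like and stroma-like cells did not differ beyond their spread, that is, their means lay closer together than the larger of their SDs. The remaining classes had means from 0.48 CPM (erythroid-like) to 19.4 CPM (neutrophil-like).

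The jag1b fold change in progenitor-like cells was 4.64 ± 0.27 (SE) on the log2 scale against all other cells (adjusted p = 6.6e-06 by edgeR's quasi-likelihood test). Against distal tubule-like cells it was 2.26 ± 0.29 (adjusted p = 1.2e-04) and against stroma-like cells 2.50 ± 0.40 (adjusted p = 1.9e-03). With the 6% of cells of the highest doublet scores left out, 49 progenitor-like cells were left, with 129, 205, 225 and 850 CPM of jag1b. The fold change against all other cells was then 4.18 and still called, whereas against stroma-like cells it was 1.92 (adjusted p = 0.11). In these comparisons jag1b was called in every other alternative that was run.

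A jag1b UMI was found in 47 of 87 progenitor-like cells (54%, exact 95% interval 43% to 64.8%) and in 19 of 35 multiciliated-like cells (54.3%). Erythroid-like cells, taken here as a class that should lack the gene, had a share of 0.602% at a median depth of 8690 UMIs. Intervals cover counting error only. With each cell thinned to 1000 UMIs the shares were 31.4% in progenitor-like, 22.9% in multiciliated-like and 2.8% in distal tubule-like cells. The difference between progenitor-like and distal tubule-like cells therefore also stood at equal depth.

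Within the progenitor-like cells jag1b was uneven. Subpopulation 2-like cells had 1268, 525, 526 and 878 CPM (799 ± 354), and 29 of 34 cells had a UMI (85.3%). Subpopulation 1-like cells had 119, 45.7, 398 and 122 CPM (171 ± 155), and 18 of 53 cells had one (34%). In each library the subpopulation 2-like level was the higher, although 1 subpopulation 1-like cell held 35 of that group's 86 UMIs. The library 1 value of subpopulation 2 rests on only 5 cells. The log2 fold change was 1.95 ± 0.60 and missed the threshold (adjusted p = 0.067, edgeR's quasi-likelihood test). With library as a block it was 2.22 (adjusted p = 0.019). Of the 10 genes only jag1b and notch2 had enough UMIs for this comparison, and neither was called, against 3.97% called higher and 4.83% lower among 1967 genes. Because jag1b was among the leading genes of the subpopulation 2-like cluster, it also describes that cluster.

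**Figure D3:**
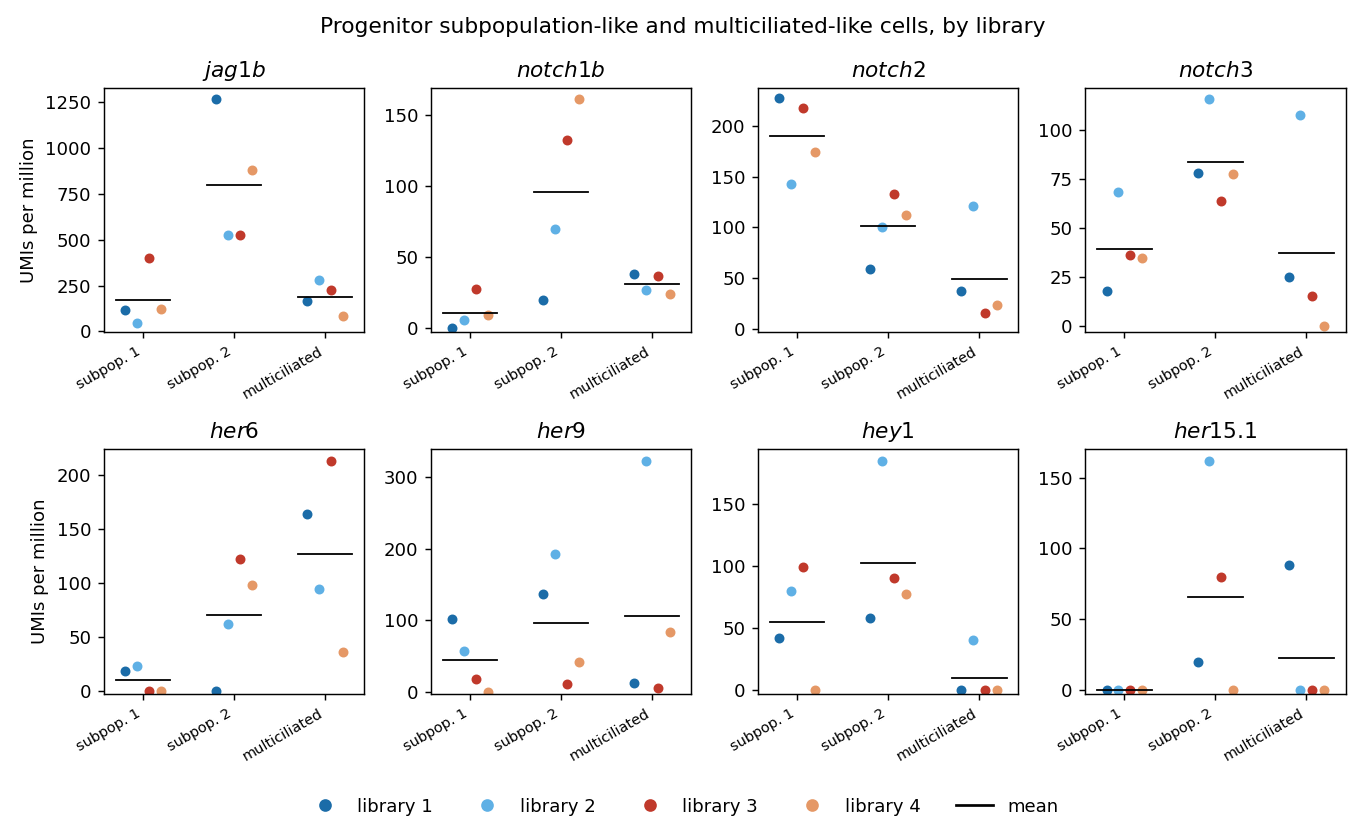
CPM by library (points) and mean (line) in subpopulation 1-like (53 cells), subpopulation 2-like (34) and multiciliated-like cells (35) for 6 of the 10 genes and for hey1 and her15.1, with an own linear axis for each gene. The points of jag1b in subpopulation 2-like cells lie between 525 and 1268 CPM, and her15.1 was at 0 in all 4 libraries of subpopulation 1-like cells.

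The jag1b level of the distal tubule-like class came mostly from 1 of its 5 clusters. This cluster, of 69 cells led by atp1a1a.5, slc12a10.3 and krt91, had 501, 489, 240 and 251 CPM, and 59 of its 69 cells had a UMI. These levels overlapped those of the progenitor-like cells, and the share of cells with a UMI was larger than there. The other 4 distal tubule-like clusters had means of 11.8 to 29.3 CPM. In the jag1b-rich cluster libraries 1 and 2 lay above libraries 3 and 4 without overlap. Proximal tubule-like cells, by contrast, had 5.32 ± 3.01 CPM of jag1b, which was lower than in all other cells (log2 fold change -1.1, adjusted p = 0.032).

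The related ligand gene jag1a was scarcer, with 40 UMIs in all progenitor-like cells. Its levels there were 22.9, 26.2, 43.5 and 54.5 CPM (36.8 ± 14.9), and 18 of 87 cells had a UMI (20.7%, 12.7% to 30.7%) against 0.201% of erythroid-like cells. The log2 fold change against all other cells was 4.73 ± 0.42 (adjusted p = 4.7e-05) and against distal tubule-like cells 3.13. Multiciliated-like (20.3 ± 20.4 CPM) and stroma-like cells (17.1 ± 14.3) came next. Neighbors in this order did not differ beyond their spread, and 1 stroma-like cell held 8 of the 23 UMIs of its class. All other class means were 7.1 CPM or less. In endothelium-like cells jag1a was not called (adjusted p = 0.06), but with library as a block it was called higher (1.84, adjusted p = 0.044). Without library 1 the call in multiciliated-like cells was lost (log2 fold change 2.38, adjusted p = 0.097, against 3.41).

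The ligand gene jag2b was highest in multiciliated-like and endothelium-like cells. Multiciliated-like cells had 303, 80.7, 104 and 119 CPM (152 ± 102), and 21 of 35 cells had a UMI (60%, 42.1% to 76.1%) against 0.0401% of erythroid-like cells. Endothelium-like cells had 73.4, 78.7, 61.9 and 80.1 CPM (73.5 ± 8.28). Library 1 of the multiciliated-like cells was the high one. The other 3 also lay above the highest endothelium-like library, but library 2 only just (80.7 against 80.1 CPM). The 2 classes did not differ beyond their spread. The kdrl cluster of endothelium-like cells, described below, had a higher mean than the multiciliated-like cells. The log2 fold change was 5.90 ± 0.43 in multiciliated-like (adjusted p = 8.2e-06) and 5.45 ± 0.30 in endothelium-like cells (adjusted p = 2.4e-06), each against all other cells.

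Progenitor-like cells had less jag2b, 18.3, 29.5, 20.1 and 31.1 CPM (24.8 ± 6.51), below every library of those classes, and all remaining class means were 4.67 CPM or less. This was still above the level of all other cells (log2 fold change 3.32 ± 0.38, adjusted p = 1.7e-04). Against distal tubule-like cells the difference was 5.03 ± 0.66 in multiciliated-like (adjusted p = 2.6e-04) and 2.31 in progenitor-like cells (adjusted p = 0.01). The latter call was lost without library 4 (1.95, adjusted p = 0.052).

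The Delta ligand gene dll4 was highest in endothelium-like cells, where it had 323, 423, 77.8 and 127 CPM (238 ± 163) and a UMI in 168 of 584 cells (28.8%, 25.1% to 32.6%). Libraries 1 and 2 were high and libraries 3 and 4 low. Every other class with 4 libraries had a mean of 14.7 CPM or less. The log2 fold change was 8.85 ± 0.78 against all other cells (adjusted p = 3.3e-05) and 4.97 ± 0.73 against stroma-like cells (adjusted p = 2.0e-03). Progenitor-like cells held 14 dll4 UMIs, of which 13 were in 9 subpopulation 1-like cells and 1 in a subpopulation 2-like cell. At 14.7 ± 18.1 CPM (41.2, 0, 10 and 7.78 by library), this level was not called different from that of all other cells (log2 fold change 2.22, adjusted p = 0.10), but was called higher with library as a block (2.2, adjusted p = 0.012).

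**Figure D4:**
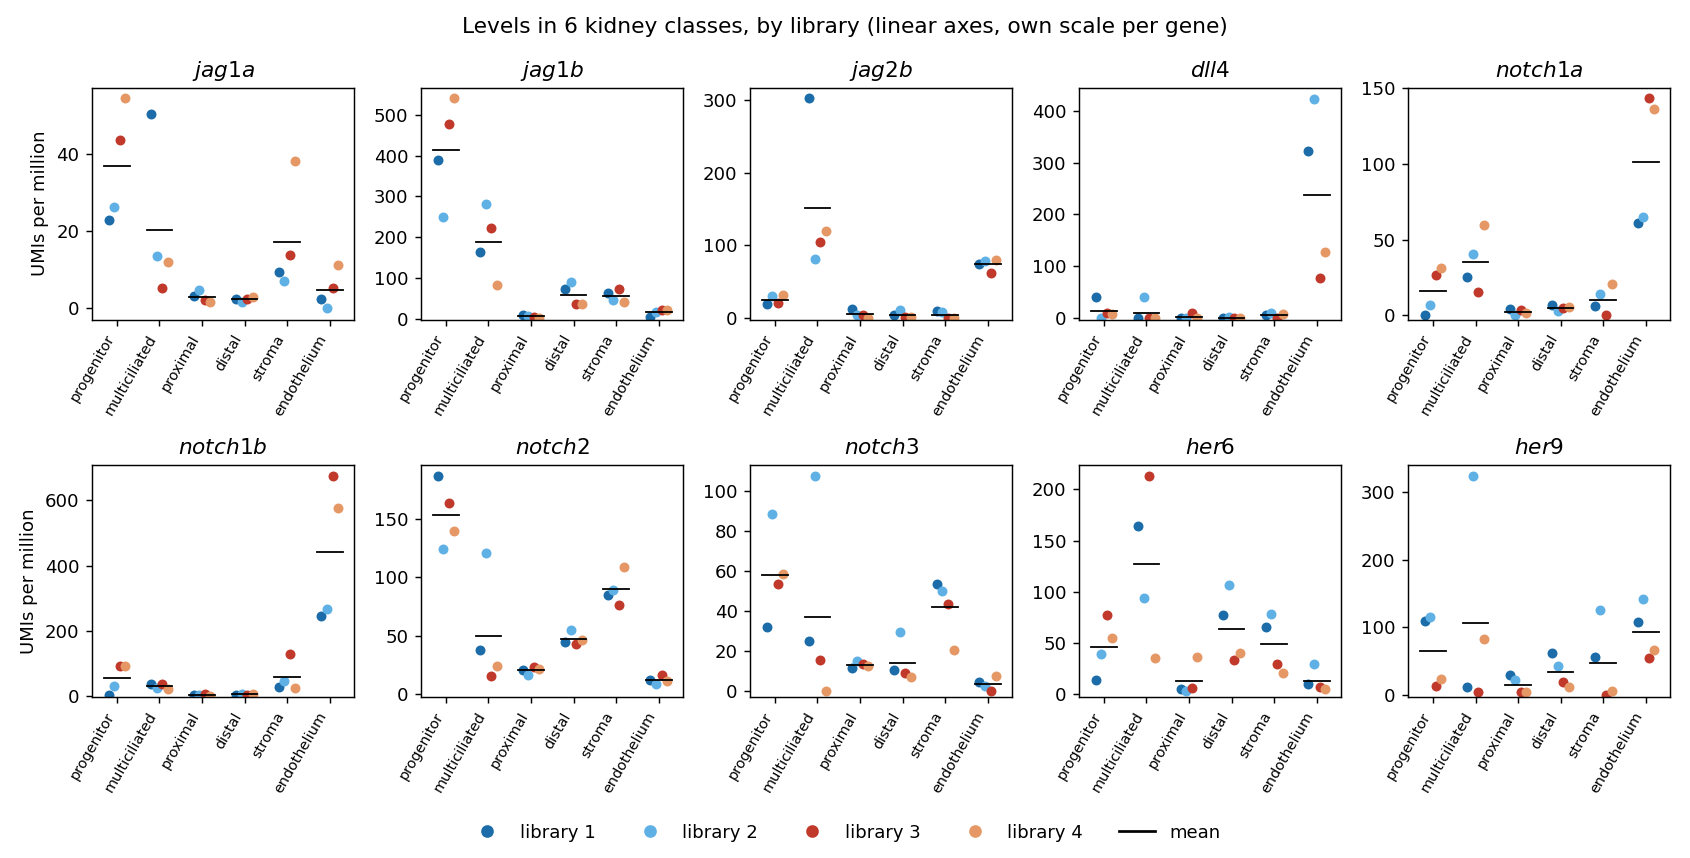
CPM of the 10 genes in the 6 kidney classes, with a point for each library, a line for the mean and an own linear axis for each gene. In endothelium-like cells dll4 was higher in libraries 1 and 2 (323 and 423 CPM) than in libraries 3 and 4 (77.8 and 127), and notch1b was lower (247 and 266 against 674 and 576).

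Among the receptors, notch1b had its highest level in endothelium-like cells, 247, 266, 674 and 576 CPM (441 ± 216). A UMI was found in 274 of 584 cells (46.9%, 42.8% to 51.1%), against 2.21% of erythroid-like cells. Hematopoietic stem and progenitor-like cells followed with 96, 102, 177 and 179 CPM (138 ± 45.8) and a UMI in 70.4% of 1136 cells, and thrombocyte-like cells with 101 ± 41.7 CPM. The last 2 did not differ beyond their spread. Stroma-like cells had 58.1 ± 49.5 CPM, and the lowest means were those of T cell-like (2.95) and erythroid-like cells (2.83). In both endothelium-like and hematopoietic stem and progenitor-like cells, libraries 3 and 4 lay above libraries 1 and 2. The log2 fold change was 3.24 ± 0.45 in endothelium-like (adjusted p = 5.3e-04) and 2.14 ± 0.26 in hematopoietic stem and progenitor-like cells (adjusted p = 3.2e-04).

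In progenitor-like cells notch1b had 4.57, 32.8, 93.8 and 93.4 CPM and was not called against all other cells. Nearly all of it, 58 of 63 UMIs, came from subpopulation 2-like cells. There the levels were 19.5, 69.4, 133 and 162 CPM (95.9 ± 63.8) and 23 of 34 cells had a UMI (67.6%), against 10.4 ± 11.7 CPM and 4 of 53 cells (7.55%) in subpopulation 1-like cells. Thinned to 1000 UMIs, the shares were 8.82% and 0. Over the sums of both subpopulations the gene had too few UMIs for a test. The whole-class values by library also mix the unequal subpopulation shares given above, and the part of these shares was not tested. Within subpopulation 2-like cells notch1b was likewise higher in libraries 3 and 4 than in libraries 1 and 2.

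The other Notch1 gene, notch1a, was likewise highest in endothelium-like cells, at 61.2, 65.1, 143 and 136 CPM (101 ± 44.3). B cell-like cells had 40 ± 4.94, multiciliated-like 35.2 ± 19.2 and macrophage-like 35.2 ± 9.13 CPM, which did not differ from each other beyond their spread. Each library of the endothelium-like cells lay above every library of these 3 classes, although the highest multiciliated-like library came close. The log2 fold changes against all other cells were 2.68 ± 0.40 in endothelium-like (adjusted p = 7.4e-04), 1.80 in macrophage-like and 1.74 in B cell-like cells, and all 3 were called. Progenitor-like cells had 0, 6.56, 26.8 and 31.1 CPM and were not called. The remaining class means lay between 1.13 CPM in thrombocyte-like and 10.3 CPM in stroma-like cells.

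The receptor gene notch2 was broad. T cell-like cells led with 242, 223, 281 and 282 CPM (257 ± 29.3), followed by neutrophil-like cells with 199 ± 46.6. Progenitor-like cells had 188, 125, 164 and 140 CPM (154 ± 27.5) and a UMI in 57 of 87 cells (65.5%, 54.6% to 75.4%), against 3.37% of erythroid-like cells. NK-like (151 ± 7.97) and macrophage-like cells (144 ± 4.89) had levels that did not differ from that of the progenitor-like cells beyond the spread. Accordingly notch2 was not called in progenitor-like against all other cells (log2 fold change -0.14 ± 0.18, adjusted p = 0.60), and without TMM scaling its sign turned (0.54).

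Among kidney classes notch2 fell in the order progenitor-like, stroma-like (89.8 ± 13.7 CPM), distal tubule-like (47.2 ± 5.53), proximal tubule-like (20.4 ± 2.93) and endothelium-like (11.9 ± 3.21). Each of these steps was beyond the spread, and multiciliated-like cells (49.6 ± 48.5, with 6 of 17 UMIs in 1 cell) had no fixed place. The progenitor-like level was above the distal tubule-like one (log2 fold change 0.99 ± 0.24, adjusted p = 6.6e-03), a call that was lost without a filter on low counts (0.72, adjusted p = 0.10). Endothelium-like cells were lower than all other cells (-3.62 ± 0.29, adjusted p = 1.8e-05) and lower than stroma-like cells (-2.98). Subpopulation 1-like cells had 227, 143, 217 and 174 CPM and subpopulation 2-like cells 58.5, 100, 133 and 112 CPM. The 2 ranges did not overlap, and the difference missed the threshold (log2 fold change -1.06 ± 0.35, adjusted p = 0.088).

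The receptor gene notch3, known for its role in the mural cells of vessels, was found in kidney classes and nearly absent from blood. Its levels in progenitor-like cells were 32, 88.6, 53.6 and 58.4 CPM (58.1 ± 23.3), with a UMI in 36 of 87 cells (41.4%, 30.9% to 52.4%) against 0.0803% of erythroid-like cells. Stroma-like cells had 53.4, 50.1, 43.7 and 20.6 CPM (41.9 ± 14.8). That class also carried mural and smooth muscle markers, which summed to 1068 to 1889 CPM, with a pdgfrb UMI in 23.1% of cells. Their part in its notch3 level was not tested. Multiciliated-like cells had 25.2, 108, 15.6 and 0 CPM. These 3 classes overlapped and did not differ beyond their spread.

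Distal (14.2 ± 10.4) and proximal tubule-like cells (13.3 ± 1.38) were lower, and all blood and immune classes had means of 1.15 CPM or less. No UMI was found in the 1095 mucin-secreting-like cells, so at most 0.274% of cells would have one, a limit on cells with a UMI and not on cells that express the gene. The 34 ovarian follicle-like cells, of libraries 1 and 2 only, had 128 and 109 CPM, which was the highest level of any class. The log2 fold change was 4.77 ± 0.43 in progenitor-like (adjusted p = 4.9e-05) and 4.54 in stroma-like cells, against all other cells. Against distal tubule-like cells progenitor-like cells were higher by 1.5 (adjusted p = 0.015), and this call was lost without library 3 (1.51, adjusted p = 0.053) or library 4 (1.37, adjusted p = 0.057).

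Of the 2 hairy-related genes, her6, a counterpart of mammalian HES1, was mainly epithelial and stromal. Multiciliated-like cells had 164, 94.1, 213 and 35.8 CPM (127 ± 77.9), and 18 of 35 cells had a UMI (51.4%, 34% to 68.6%), although 1 cell held 21 of the 64 UMIs. Distal tubule-like cells had 77.2, 106, 33.1 and 40.4 CPM (64.2 ± 34). Stroma-like cells had 66, 78.7, 30 and 20.6 CPM and progenitor-like cells 13.7, 39.4, 77 and 54.5 CPM. The 4 classes overlapped in range, with libraries 1 and 2 above libraries 3 and 4 in the distal tubule-like and stroma-like cells.

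Against all other cells her6 was higher in each of these classes, by 4.37 in multiciliated-like, 4.66 ± 0.33 in distal tubule-like (adjusted p = 4.6e-06), 3.25 in stroma-like and 2.91 ± 0.44 in progenitor-like cells (adjusted p = 8.7e-04). Within the distal tubule-like class the slc12a3 cluster had 111 ± 48.8 CPM and the cluster led by sox13 5 CPM. In progenitor-like cells 45 of the 52 UMIs came from subpopulation 2-like cells. These had 0, 61.7, 122 and 98.4 CPM, against 10.2 ± 11.9 in subpopulation 1-like cells. For her6, too, the whole-class values by library mix unequal subpopulation shares, whose part was not tested. Without the 6% of cells of the highest doublet scores, the progenitor-like fold change was 2.03 (adjusted p = 0.019, edgeR's quasi-likelihood test). Among the blood and immune classes the mean level was 21.1 ± 16.3 CPM in NK-like cells, 5.19 ± 2.14 CPM in macrophage-like cells and 1.89 CPM or less in the others. No UMI was found in 2048 B cell-like cells, a limit of 0.146% on cells with a UMI.

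The other hairy-related gene, her9, had its highest mean in T cell-like cells. Whether its level follows Notch signaling in these cells was not tested. These had 198, 142, 67.1 and 88.1 CPM (124 ± 58.7), macrophage-like cells 110, 139, 64.5 and 83.2 (99.3 ± 32.5), and endothelium-like cells 108, 141, 54.8 and 67.1 (92.7 ± 39.4). In all 3 classes libraries 1 and 2 lay above libraries 3 and 4. Multiciliated-like cells had 12.6, 323, 5.2 and 83.6 CPM, so that library 2 decided their mean of 106. Progenitor-like cells had 110, 115, 13.4 and 23.4 CPM, which is the same split by library pair, and were not called. The lowest mean was that of hematopoietic stem and progenitor-like cells (1.08).

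The log2 fold changes of her9 were 2.17 in T cell-like, 2.1 in macrophage-like and 1.1 ± 0.33 in endothelium-like cells (adjusted p = 0.026), and all 3 were called. The endothelium-like call was lost without library 1 (1.27, adjusted p = 0.067) or library 2 (1.16, adjusted p = 0.058). The T cell-like call was lost when the first clustering had a resolution of 0.8 (0.40, adjusted p = 0.66).

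Endothelium-like cells were made up of 2 clusters that the library pairs filled unequally. A cluster with lyve1b, gpr182 and mrc1a, genes of scavenging and lymphatic-type vessels, among its 10 leading genes held 167 and 160 cells of libraries 1 and 2 and 14 and 18 of libraries 3 and 4. A cluster with kdrl, plvap and col4a1 among them held 35, 37, 79 and 74. The genes stab1 and stab2 were among the 10 leading genes of both. The class values above mix these shares, so each cluster was also taken alone. Within both clusters dll4 was higher in libraries 1 and 2: 290 and 420 against 72 and 97.8 CPM in the lyve1b cluster, and 439 and 439 against 79.3 and 136 CPM in the kdrl cluster. For notch1b the split between library pairs was seen in the kdrl cluster only (308, 279, 790 and 676 CPM), and the lyve1b cluster had 240 ± 33.4. The ligand jag2b had 162 ± 99.3 CPM in the kdrl cluster and 22.4 ± 21.9 in the lyve1b cluster, and the kdrl value was the higher in every library.

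**Figure D5:**
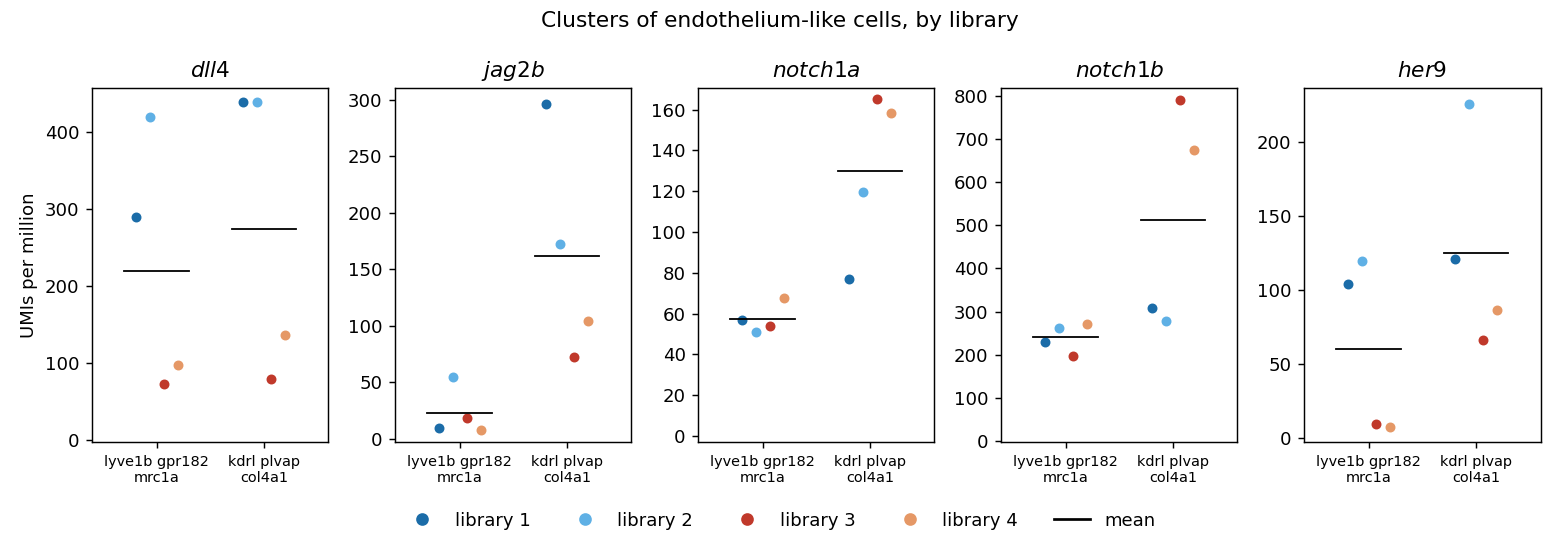
CPM by library (points) and mean (line) of 5 genes in the 2 endothelium-like clusters, with an own linear axis for each gene. The 4 jag2b points of the kdrl cluster lie above those of the lyve1b cluster, and dll4 was higher in libraries 1 and 2 in both clusters.

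Against stroma-like cells, endothelium-like cells had more jag2b, dll4, notch1a and notch1b and less jag1b, notch2 and her6. This was 7 of 8 genes tested, with 8.82% of 5315 genes called higher and 6.98% lower. Only the jag2b, dll4 and notch2 calls held without each library in turn. The number called was 3 to 6 when a library was left out. Multiciliated-like cells had more jag1b, jag2b, notch1a and notch1b than distal tubule-like cells, 4 of 8 genes tested, against 7.7% of 6881 genes called higher and 9.14% lower. There jag2b was called without each library in turn. For jag1b, notch1a and notch1b the calls were lost without library 1 (adjusted p = 0.056, 0.061 and 0.07) and without library 3 (0.19, 0.059 and 0.21). Without library 2 jag1b (0.069) and notch1a (0.096) and without library 4 notch1a (0.11) were not called. Progenitor-like cells had more jag1a, jag1b, jag2b, notch2 and notch3 than distal tubule-like cells (5 of 7 tested, against 20% of 8090 genes called higher and 25% lower), and more jag1b than stroma-like cells (1 of 6 tested, against 6.17% and 12.2% of 4476). With the 6% of cells of the highest doublet scores left out, which held 43.7% of the progenitor-like cells, only the jag1b (1.76) and notch2 (1.02) calls against distal tubule-like cells remained. There jag1a, jag2b and notch3 had too few UMIs to be tested, and her6 was called lower (-2.07, adjusted p = 0.005). With library as a block, her6 was likewise called lower in progenitor-like than in distal tubule-like cells (-1.01, adjusted p = 0.039, against 0.071 without the block).

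In tubule-like cells the receptors notch1a, notch1b and notch2 were all lower than in other cells. Proximal tubule-like cells had 2 of the 10 genes higher (jag1a and notch3) and 4 lower, against 19% and 23.8% of 19789 genes. Distal tubule-like cells had 4 higher (jag1a, jag1b, notch3 and her6) and 3 lower, against 19.6% and 26.3% of 20416 genes. The distal tubule-like notch1b level was 5.99 ± 1.72 CPM (log2 fold change -2.60). The proximal call of jag1a was lost without library 1, 2 or 3 (1.28, 1.26 and 1.69, adjusted p = 0.15, 0.12 and 0.065), the proximal call of jag1b without library 2, 3 or 4 (adjusted p = 0.077, 0.14 and 0.10) and the distal call of jag1a without library 1, 3 or 4 (adjusted p = 0.061, 0.086 and 0.078). The distal call of notch1a was lost without library 3 or 4 (adjusted p = 0.093 and 0.055). With library as a block, her9 was also called lower in proximal (-1.05, adjusted p = 0.019) and dll4 in distal tubule-like cells (-2.17, adjusted p = 0.048).

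Over the 8 blood and immune classes, 80 pairs of gene and class were tested against all other cells, of which 52 were called, 13 higher and 39 lower. All 10 genes were lower in erythroid-like cells, where 51.3% of genes were called in either direction. For these classes the share of all genes called is given for both directions together. It is therefore no like measure for a count of higher or of lower genes. In hematopoietic stem and progenitor-like cells 7 genes were called, of which only notch1b was higher (40.8% of genes called). Neutrophil-like cells had 8 called, with notch2 higher by 1.72 ± 0.13 and jag1b by 1.43 ± 0.12 on the log2 scale and the other 6 lower (49.1%). The neutrophil-like jag1b level was 19.4 ± 2.93 CPM. Macrophage-like cells had 5 called, with notch1a, notch2 and her9 higher (34.7%), and B cell-like cells 7, with jag1a and notch1a higher (30.3%). In T cell-like cells 5 were called, with notch2 (1.27 ± 0.10) and her9 higher (36.2%), in NK-like cells 5, with notch2 and her6 higher (18.9%), and in thrombocyte-like cells 5, with notch1b higher (29.9%). The notch2 call in NK-like cells (0.42) and the notch1b call in thrombocyte-like cells (1.23) were each lost on leaving out library 1, 3 or 4, and the former also without library 2. The her6 call in NK-like cells was lost without library 1 or 4. Of the 52 calls, 40 to 45 remained when a library was left out. The other calls so lost were of lower genes: dll4 in 4 classes (hematopoietic stem and progenitor-like, erythroid-like, macrophage-like and B cell-like), her6 in hematopoietic stem and progenitor-like and erythroid-like cells, jag1a in erythroid-like, jag2b and notch1a in neutrophil-like, notch3 and her9 in B cell-like, jag1b and notch1a in NK-like and jag1b in thrombocyte-like cells. With library as a block 60 were called, the 52 among them. The added ones were her9 in NK-like cells, which was higher, and 7 that were lower: dll4 in neutrophil-like, T cell-like and NK-like cells, notch1a and notch3 in T cell-like cells and jag2b in hematopoietic stem and progenitor-like and B cell-like cells.

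Neutrophil-like cells, too, were filled unequally. Their mmp13a, mmp9 and il1b cluster held 59 and 60 cells of libraries 1 and 2 and 1458 and 1360 of libraries 3 and 4. Over all classes with at least 20 UMIs of a gene, the direction in which the library pairs differed was not the same for all genes. The receptor notch1b was higher in libraries 3 and 4 in 12 of 14 classes, without overlap in 8, notch1a in 8 of 9, notch2 in 10 of 14 and jag1a in 6 of 6. The hairy-related gene her9 was higher in libraries 1 and 2 in 11 of 14 classes, without overlap in 9. So were her6 in 6 of 9, jag2b in 5 of 7 and notch3 in 4 of 5. The ligand jag1b had no common direction, with 6 classes higher in libraries 3 and 4 and 6 in libraries 1 and 2. How many of all genes split in this way was not counted, and the summed counts of the pairs differed over all genes, as given above. These counts therefore do not show whether the 10 genes split more than other genes. Since all 4 libraries have the same label, this split was described by its values only. The depth per cell and the listing of mitochondrial genes moved with it, and their part was not tested.

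The wider Notch pathway list held 77 genes, of which 67 were listed. It includes the 10 genes, so the calls given above are counted again here. Of the higher genes below, they make up 5 in progenitor-like, multiciliated-like and endothelium-like cells. They make up 4 in stroma-like and distal tubule-like cells and 2 in proximal tubule-like cells. Of the lower genes, they make up 1 in multiciliated-like and endothelium-like, 3 in distal and 4 in proximal tubule-like cells. In progenitor-like cells 8 of the 50 tested were higher (10.6% of all genes tested) and 5 lower (18.8%), with a median log2 fold change of 0.27 against -0.34 over all genes tested. In endothelium-like cells 14 of 50 were higher (11.4%) and 6 lower (23.7%), with a median of 0.60 against -0.46. Multiciliated-like cells had 8 of 50 higher (10.3%) and 8 lower (18.6%), with a median of -0.11 against -0.85. Stroma-like cells had 9 of 51 higher (12.4%) and 4 lower (16%), with a median of 0.08 against -0.36. Distal tubule-like cells had 9 of 51 higher (19.6%) and 11 lower (26.3%), with a median of -0.13 against -0.27, and proximal tubule-like cells 8 higher (19%) and 15 lower (23.8%), with a median of -0.26 in the list and over all genes. The list was not tested as a set.

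Among the genes of the list outside the 10, the target hey1 had its highest level in progenitor-like cells. It stood there at 45.7, 125, 93.8 and 42.8 CPM (76.7 ± 39.6). It was found in 17 of 34 subpopulation 2-like cells (103 ± 56.4 CPM) and in 7 of 53 subpopulation 1-like cells (55.3 ± 44 CPM). In each subpopulation 1 cell held many of the UMIs, 17 of 55 and 11 of 32. Its log2 fold change was 7.29 against all other cells (adjusted p = 2.7e-05), 5 against distal tubule-like and 5.76 against stroma-like cells. The target her15.1 had 19.5, 162, 79.7 and 0 CPM in subpopulation 2-like cells and a UMI in 10 of 34 cells, but in none of the 53 subpopulation 1-like cells. One multiciliated-like cell of library 1 also held it.

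Endothelium-like cells had high levels of the Delta ligand gene dlc, 1714, 1854, 794 and 626 CPM (1247 ± 626, log2 fold change 6.79), and stroma-like cells had 244 ± 88.1 (3.69). The fringe gene lfng, which codes for a glycosyltransferase that alters how receptors respond to ligands, had 404, 347, 122 and 98.8 CPM in endothelium-like cells (243 ± 155, 6.98) and 65.6 ± 36.3 in multiciliated-like cells (3.81). For both genes libraries 1 and 2 of the endothelium-like cells were the high ones. Within the lyve1b cluster dlc had 1918, 2087, 774 and 587 CPM, and within the kdrl cluster the split was smaller (1000, 944, 799 and 639 CPM). The lfng split was present in both, with 362, 283, 126 and 143 CPM in the lyve1b cluster and 549, 598, 121 and 84.2 CPM in the kdrl cluster. A second fringe gene, mfng, was highest in macrophage-like cells, at 104 ± 3.8 CPM (3.41). Multiciliated-like cells also had the other jagged 2 gene, jag2a, at 50.4, 108, 93.6 and 23.9 CPM (68.9 ± 38.6), which was higher than in distal tubule-like cells by 4.6 (adjusted p = 7.9e-05). The feedback inhibitor gene nrarpa had 98.5 ± 68.4 CPM in endothelium-like cells and 84.4 ± 32.3 in subpopulation 2-like cells. The ligand genes dla, dlb and dld and the target heyl had means of 0.72 CPM or less in every class.

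Ligand and receptor UMIs were also counted within single progenitor-like cells. Any of the 4 ligands was found in 69% of the 87 cells, any of the 4 receptors in 79.3%, both in 58.6% and her6 or her9 in 36.8%. Among the 47 cells with jag1b, 24 had notch3 (51.1%), against 30% of those without it. Taken by subpopulation, notch3 was found in 5 of 18 subpopulation 1-like cells with jag1b (27.8%) and 31.4% of those without, and in 19 of 29 subpopulation 2-like cells with jag1b (65.5%) and 1 of the other 5. Of the progenitor-like cells, 66% with jag1b and 65% without it had notch2. Of the 10 with dll4, 10% had notch1b, and of the rest 33.8%. By subpopulation, notch1b was found in 1 of 9 subpopulation 1-like cells with dll4 (11.1%) and in 6.82% of those without. Only 1 subpopulation 2-like cell had dll4. It lacked notch1b, which 69.7% of the other subpopulation 2-like cells had. In distal tubule-like cells her6 was found in 34 of the 65 cells with notch3 (52.3%) and in 12.4% of the rest, not split by cluster. The same shares were 19.4% and 15.7% in progenitor-like and 15.8% and 13.3% in stroma-like cells. In subpopulation 1-like cells they were 6.25% and 8.11%, and in subpopulation 2-like cells 30% and 35.7%. In multiciliated-like cells they were 71.4% (of 7 cells) and 46.4%, and in endothelium-like cells 25% (of 4 cells) and 1.9%. In endothelium-like cells notch1b was found in 101 of the 168 cells with dll4 (60.1%) and in 41.6% of the rest. A deeper cell shows more of every gene, and these shares were not adjusted for depth.

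To find genes with the most similar pattern, Pearson's r of log2(CPM + 10) over the 16 classes was computed for 8749 genes outside the Notch list, and the 3 highest were taken for each gene. For jag1b these were grip1 (0.941), axin2, an inhibitor in the Wnt pathway (0.929), and LOC110438814 (0.929). For jag1a they were cxxc5a, kif26ba and gas1a (0.95 to 0.959). Those of notch3 were lamb1a, a laminin gene (0.940), ninl and phgdh. For jag2b they were LOC100535772 (0.985), xpr1a and si:dkeyp-86b9.1, and for dll4 pcbp3 (0.990), wasf3b and sema3ab. For her6 they were nhsa (0.932), myo10 and zgc:77158, and for her9 si:dkey-151g10.3 (0.901), tiparp and tnfb.

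The receptors notch1a, notch1b and notch2 had weaker matches. The closest genes were lrrk2 (0.887), abcb6b and gypc for notch1a, rapgef1b (0.874), mgat1b and chn1 for notch1b, and abca2 (0.849), id3 and hiat1a for notch2. These correlations describe 16 class means that share their libraries, and no test was run on them.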

How the data were processed

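Kidney cells of 4 libraries of 1 condition, all from AB fish after gentamicin, were captured on the BD Rhapsody system with a 3′ whole transcriptome protocol. The values deposited by the authors are raw UMI counts of each gene in each cell. The submitters' processing notes name UMI-tools, Seurat 4.2 and the genome build GRCz11, and no aligner is given in the sources used here. Gene symbols are those of the deposited tables, and a gene missing from a library's list was set to 0 in it. No coordinates or sequences were used.

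All 31008 barcodes were clustered with Seurat 5.3.0 (R 4.3.3) on log-normalized counts, with 2000 variable genes that excluded the Notch pathway list, genes scaled within each library, 30 principal components and a resolution of 0.6. Kidney clusters were clustered again at 1.0, and the progenitor and multiciliated cells at 0.5 with 10 components. In this last step genes were scaled over all libraries together and not within each library. Clusters were named by the marker list with the largest average log2 ratio over other cells (pseudocount of 10 CPM). This ratio had to reach 1, 3 or more of the list's markers had to be found, and no second class could have more markers among the 10 leading genes. The progenitor marker pax2a, which was also found in tubule-like and multiciliated-like cells, was left out of that last count. The multiciliated-like cluster had pax2a and 0 multiciliated markers among its 10 leading genes, so its name rests on this exception. The names are therefore rebuilt and may differ from those of the study. The values given include possible doublets. Scrublet (scanpy 1.11.5) called 6 cells, so its threshold did not work, and an alternative left out the 6% of cells with the highest scores. Free RNA was not corrected for.

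Each class gave 1 sum of counts per library (sums of fewer than 3 cells were dropped). The sums were compared by the quasi-likelihood test of edgeR 4.0.16, with TMM factors and filterByExpr and no block, and p-values were adjusted over all tested genes by the Benjamini-Hochberg method. Alternatives were DESeq2 1.42.0, no TMM factors, no filter, a library block, other resolutions and scaling, each library left out, each library pair alone, the doublet scores, and, chosen after seeing the data, 3 germ cell marker-rich or 3 neutrophil marker-rich cells left out. The class and other-cell sums of a library came from the same library, and their deviations from the group means had correlations of 0.29 to 0.782 over 19 comparisons, so libraries pair the sums. The median log2 fold change over all genes lay between -0.85 and -0.03 in these comparisons. Intervals of shares are exact (Clopper-Pearson, 95%), and for a count of 0 the limit is 3 counts. Thinning drew 1000 UMIs from each cell. Named genes were the 10 members, listed genes of the wider Notch list that were called or fixed by name, and the 3 genes of most similar pattern among those at 50 CPM or more in a class. The members and lists were chosen with earlier results of these data known.

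The tests were tested on simulated counts. For progenitor-like against all other cells 19472 genes were tested. There 49% of genes changed by 2 on the log2 scale were called, and 97% of those changed by 4. For subpopulation 2-like against subpopulation 1-like cells (2100 genes tested) the shares were 89.5% and 100%. These are shares of the changed genes that passed the filter on low counts, which most changed genes of the subpopulation comparison did not. The shares of the comparisons therefore cannot be set against each other. Simulated libraries were independent, with the same dispersion for every gene. No call had the wrong direction. The sums of progenitor-like cells held 218667 to 304776 UMIs per library, so genes with few UMIs were measured with little precision.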

Additional observations from a re-analysis of the deposited data

Results flagged for a closer look

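Of 97 sets of 4 library values with at least 20 UMIs, 5 had 1 library far from the other 3, and chance alone gives about 1 in 20. The notch1b level of B cell-like cells was 14.8 CPM in library 4. The notch2 level of erythroid-like cells was 6.28 CPM in library 2. The notch3 level of distal tubule-like cells was 29.6 CPM in library 2, and that of her6 in proximal tubule-like cells was 35.9 CPM in library 4. The her9 level of neutrophil-like cells was 7.09 CPM in library 4. In each of these the library named was the highest of the 4.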

How the results depend on the processing

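Of 103 results in which 1 of the 10 genes was called in a comparison, 66 were called in the same direction under every alternative run, and none changed direction. Leaving out 1 library lost 32 of them. Of 68 results not called, 28 had the opposite sign under at least 1 alternative, and 4 were then called: dll4 in proximal tubule-like, notch1b in neutrophil-like and jag2b in macrophage-like cells in libraries 1 and 2 alone, and her9 in stroma-like cells in libraries 3 and 4 alone. Without TMM factors the fold change of notch2 in progenitor-like cells against all other cells was 0.54, against -0.14.

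For proximal tubule-like cells against all other cells 6 genes were called, and 4 to 6 without each library, and for distal tubule-like cells 7, and 5 to 7. For progenitor-like against distal tubule-like cells it was 5, and 3 without the highest doublet scores, of which 2 were among the 5, or 3 to 6 without each library. For progenitor-like against stroma-like cells it was 1, and 0 without the highest doublet scores. For multiciliated-like against distal tubule-like cells it was 4, and 1 without a filter or in libraries 1 and 2 alone, 2 without the highest doublet scores and 1 to 3 without each library. For endothelium-like against stroma-like cells it was 7, and 4 without the highest doublet scores and 3 to 6 without each library. For subpopulation 2-like against subpopulation 1-like cells it was 0, and 1 without TMM factors, in libraries 1 and 2 alone, in libraries 3 and 4 alone, with a second resolution of 1.5 or without the highest doublet scores, 2 with DESeq2, 3 without a filter, and 0 to 1 without each library. The cause was not tested.

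With library as a replicate block, which pairs the sums, the last count was 1 (jag1b). Those of progenitor-like, proximal tubule-like, distal tubule-like and endothelium-like cells against all other cells were 6, 7, 8 and 7 in place of 5, 6, 7 and 6, with dll4, her9, dll4 and jag1a added. That of progenitor-like against distal tubule-like cells was 6 in place of 5, with her6 added, and that of the blood and immune classes 60 in place of 52. No result called without the block was lost with it. In the subpopulation comparison only 2 of the 10 genes passed the filter on low counts, at sums of 51249 to 188091 UMIs per library.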

Other observations

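An unnamed cluster of 110 cells, with flt3, irf8 and tlr7 among its leading genes, carried ligand and receptor UMIs. Its jag1b level was 211, 173, 188 and 174 CPM in libraries 1 to 4 (187 ± 17.6, SD, n = 4), with a UMI in 69 of 110 cells (62.7%). It also had 36.9 ± 11.8 CPM of jag2b, 20.1 ± 9.19 CPM of jag1a and 61.2 ± 19.4 CPM of notch1a. No UMI of dll4, notch3 or her6 was found in it. The 4 libraries lay closer together for jag1b in this cluster than in the progenitor-like cells (414 ± 127).

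A second unnamed cluster, of 175 cells with spock3, mpeg1.1 and cd83 among its leading genes, had 96.8, 61.9, 254 and 199 CPM of notch1b and 78.6, 153, 156 and 266 CPM of her9. Its her9 mean of 163 CPM was above that of every named class, and here libraries 3 and 4 were not below libraries 1 and 2. No UMI of her6 was found in it.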
